A study of Mus musculus with 6 samples.

Results

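The microRNAs described here are the blood-lineage microRNAs miR-142, miR-150, miR-223 and miR-342 in exosomes shed by macrophages. They were chosen by name: the species prefix and the suffix that gives the shift of the ends were dropped from each name, and names of these microRNAs were kept with or without an arm (5p or 3p). The rule kept 4 of 2704 distinct sequences, or 4 of the 533 distinct sequences with a microRNA name: miR-142-5p_L+2R-2, miR-142-3p_L-1, miR-223-3p and miR-342-5p_R+4. The rule found no row for miR-150, which was not analysed here.

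The exosomes came from the culture supernatant of RAW264.7 cells, a mouse macrophage line, kept in exosome-free medium either on titanium with small-scale topography or on smooth titanium disks, with 3 libraries of each. The small-scale topography was a rough, micro- and nano-textured surface made by sandblasting, acid etching and an alkali thermal reaction, and the smooth surface was polished. The paper's culture methods name fetal bovine serum in the medium and do not mention exosome-free medium. The comparison asks which exosomal microRNAs differ between macrophages on the textured and on the smooth metal. RAW264.7 is 1 cell line, and no label states that the replicate libraries stem from separate cultures. The methods speak of independent repeats of the experiment in general, without naming the sequencing. The p-values therefore refer to the scatter among these 6 libraries, which may be technical.

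MicroRNAs are short RNAs that guide Argonaute proteins to messenger RNAs, mostly by pairing of the seed, bases 2 to 8 counted from the 5′ end. Each is cut from a hairpin that can give a product from its 5′ arm and one from its 3′ arm, and a product that starts at another base has another seed. miR-142 is expressed throughout the blood lineage, miR-223 is abundant in granulocytes and monocytes and targets Nlrp3 in myeloid cells, miR-150 marks mature lymphocytes, and miR-342 lies in an intron of Evl, which encodes an actin regulator of the Ena/VASP family. They are commonly used as signs of blood cell RNA in vesicles and body fluids.

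The values are normalized signals per sequence and library, made by the authors with ACGT101-miR. One read was worth 0.466 to 1.55 of these units, as recovered from the smallest steps of the values. The listed sequences then added up to 163845 to 264828 reads per library with small-scale topography and 194510 to 604081 with smooth disks. Reads that the authors filtered out are not included. In each library 89.2% to 93.8% of the values above 0 lay within 0.02 reads of a whole number. The value of a read was chosen so that most listed values were whole, so this share is no separate check of it. Of the values listed, 1.25% to 6.92% per library were under 5 reads, so a listed 0 may stand for a few reads or for none. Reads given for a sequence are those behind its listed values. The value of 5 reads was 5.25 to 7.77 with small-scale topography and 2.33 to 6.03 with smooth disks.

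The sequences are printed because each of the 4 differed from the annotated mouse form at 1 end or at both. The RefSeq mouse form (GRCm38.p6) stands under each deposited sequence, and capitals mark the seed, bases 2 to 8.
miR-142-5p_L+2R-2: cCCAUAAAguagaaagcacua
mmu-miR-142a-5p: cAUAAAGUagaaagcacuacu
miR-142-3p_L-1: gUAGUGUUuccuacuuuaugga
mmu-miR-142a-3p: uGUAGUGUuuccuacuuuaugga
miR-223-3p: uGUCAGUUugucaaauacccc
mmu-miR-223-3p: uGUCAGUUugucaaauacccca
miR-342-5p_R+4: aGGGGUGCuaucugugauugagggac
mmu-miR-342-5p: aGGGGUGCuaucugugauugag

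Both miR-142 sequences had a seed other than that of the annotated mouse form. miR-142-5p_L+2R-2 began 2 bases earlier than mmu-miR-142a-5p and ended 2 bases earlier, so that its seed was CCAUAAA and not AUAAAGU. miR-142-3p_L-1 began 1 base later than mmu-miR-142a-3p and had the seed UAGUGUU in place of GUAGUGU. None of the 2704 distinct sequences had either RefSeq seed of miR-142 at bases 2 to 8. The miR-223 and miR-342 sequences kept the annotated 5′ end and seed. miR-223-3p was 1 base shorter at its 3′ end, and miR-342-5p_R+4 was 4 bases longer and reached 26 nt, the longest length that the authors kept. No other sequence of the table shared a seed with any of the 4.

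By the shifts that names give, the shifted 5′ ends of miR-142 and the long 3′ end of miR-342-5p_R+4 were uncommon among the named sequences. Of the 305 named sequences tested, 44 (14.4%) had a 5′ end shifted by their name, 10 (3.28%) began 2 or more bases earlier, as the miR-142 5p sequence did, and 15 (4.92%) began 1 base later, as the 3p sequence did. Only 2 (0.656%) ran 4 or more bases longer at the 3′ end, and miR-342-5p_R+4 was the 1 sequence of 26 nt. A 3′ end 2 bases shorter, as in the miR-142 5p sequence, was found in 26 (8.52%). The 3′ end of miR-223-3p was not counted, since its name gives no shift. Names such as mir-223-p5 give no shift either, so that sequence counted as unshifted although it begins later than the annotated miR-223-5p. The shares of shifted 5′ ends given here may therefore be too low. All 4 names were taken from the rat, and each sequence matched 1 mouse hairpin without a mismatch.

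By their RefSeq hairpins in GRCm38.p6, both arms of miR-142 lie on the plus strand of chromosome 11, the 5p sequence at chr11:87756865-87756885 and the 3p sequence at chr11:87756904-87756925, within an intron of the noncoding gene Mir142hg. miR-223-3p lies on the plus strand at chrX:96242884-96242904, in an exon of the noncoding gene F630028O10Rik. miR-342-5p_R+4 lies on the plus strand at chr12:108658638-108658663, in an intron of Evl.

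**Figure D1:**
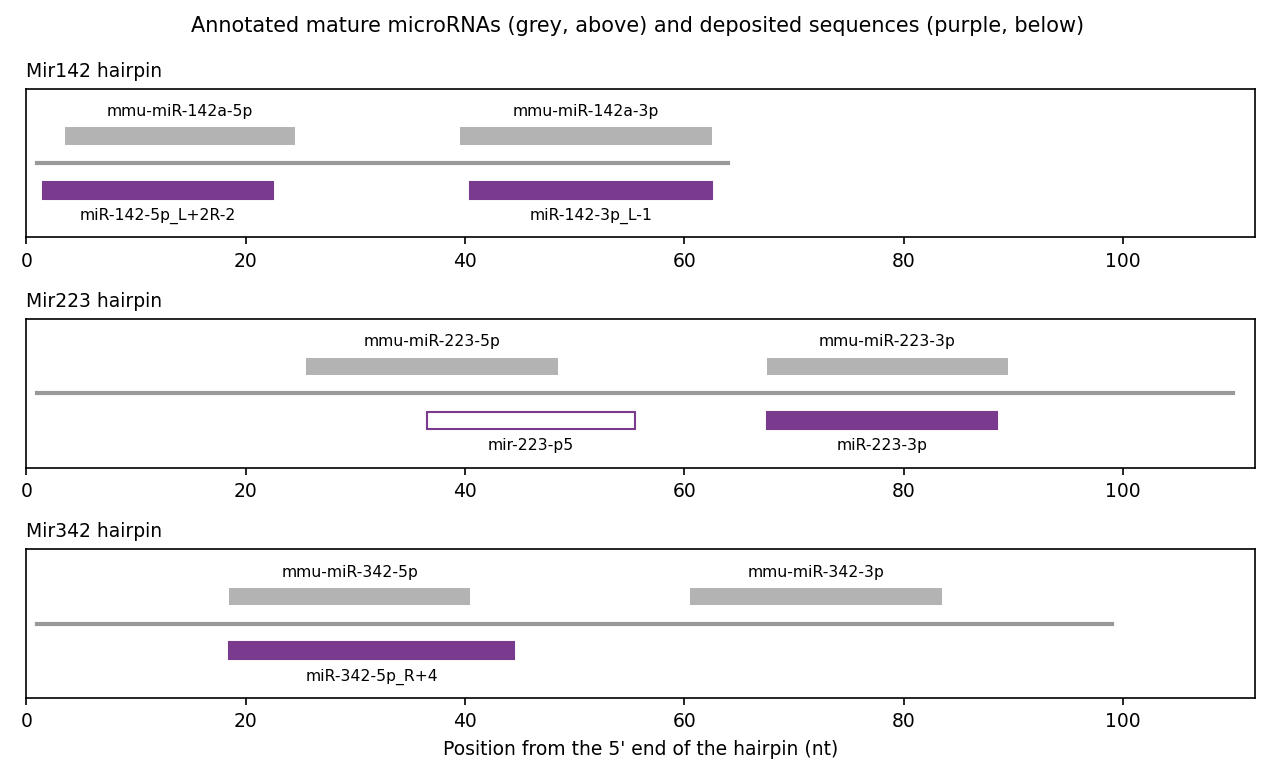
Positions of the annotated mature microRNAs (grey) and of the deposited sequences (filled purple) along the Mir142, Mir223 and Mir342 hairpins, in nt from the hairpin's 5′ end; the open box is mir-223-p5, which the name rule did not keep. The miR-142 5p sequence covers positions 2 to 22 against 4 to 24 of the annotated form, the 3p sequence 41 to 62 against 40 to 62, miR-223-3p 68 to 88 against 68 to 89 and miR-342-5p_R+4 19 to 44 against 19 to 40.

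miR-142-5p_L+2R-2 was the most abundant of the 4 and was listed in every library. Its value was 119.6, 107 and 123 in small-scale topography replicates 1 to 3, against 184, 205 and 100.02 in smooth replicates 1 to 3. Smooth replicates 1 and 2 were above all libraries of small-scale topography and smooth replicate 3 was below them, so the groups overlapped. These values stood for 93, 69 and 117 reads with small-scale topography and for 223, 439 and 83 reads with smooth disks. The exact Poisson 95% intervals, in units of the value, were 96.5 to 146, 83.4 to 136 and 102 to 147 with small-scale topography, against 161 to 209.96, 186 to 225 and 79.7 to 124 with smooth disks. They cover counting error only, since the reads carry no molecular identifiers, and the smooth libraries differed among themselves by more than this error.

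The mean of miR-142-5p_L+2R-2 was 117 ± 8.30 with small-scale topography and 163 ± 55.4 with smooth disks (SD, n = 3 each). The log2 fold change, small-scale topography over smooth, was -0.42 (SE 0.37, 95% interval -1.17 to 0.33) on the log2(value + 1) scale, or 0.749-fold with an interval of 0.446-fold to 1.26-fold. In limma's test across 536 sequences it had an unadjusted p of 0.265 and an adjusted p of 0.823, and did not pass. Without smooth replicate 3 the log2 fold change was -0.73 with an unadjusted p of 0.0049 and an adjusted p of 0.276 in limma's test. Without smooth replicate 2 it was -0.22, with an unadjusted p of 0.585 in limma's test. Of the 6 fits with 1 library left out, only 1 had an unadjusted p under 0.05. Among the named sequences listed in a library it ranked 85 of 291, 87 of 274 and 83 of 315 with small-scale topography, against 67 of 326, 68 of 401 and 90 of 292 with smooth disks.

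The 3p sequence of miR-142 was near the listing limit. miR-142-3p_L-1 was listed at 0, 10.9 and 12.6 with small-scale topography (0, 7 and 12 reads), against 7.43, 6.99 and 7.23 with smooth disks (9, 15 and 6 reads). The 2 listed libraries of small-scale topography were above all smooth libraries and the other was at 0, so the groups overlapped. The log2 fold change was -0.59 (SE 1.40, 95% interval -3.45 to 2.27), with an adjusted p of 0.930 in limma's test, while the mean value ran the other way, 7.83 with small-scale topography against 7.22 with smooth disks. The direction rested on the listed 0: without small-scale topography replicate 1 it was 0.63, and with a listed 0 taken as the value of 5 reads, an alternative chosen after seeing the data, it was 0.37.

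Within a library the 5p sequence of miR-142 was above the 3p sequence throughout. The ratio of 5p to 3p was 9.86 and 9.75 in small-scale topography replicates 2 and 3, with the 3p sequence listed at 0 in replicate 1, against 24.8, 29.3 and 13.8 in smooth replicates 1 to 3. The 5p arm made up 100%, 90.8% and 90.7% of the summed miR-142 value with small-scale topography, against 96.1%, 96.7% and 93.3% with smooth disks. The difference was not tested, because the 3p arm was not listed in all 6 libraries, and the log2 difference of the ratios with a pseudocount of 1 was 0.18. It changed sign to -1.07 without small-scale topography replicate 1, the library with the listed 0, and to -0.14 without smooth replicate 3, in which both arms were listed. Each arm was present as 1 sequence, so there were no shares of isomiRs to compare.

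miR-223-3p, the granulocyte and monocyte microRNA, was listed in 1 of 3 libraries with small-scale topography and in 3 of 3 smooth libraries. Its value was 0, 20.2 and 0 with small-scale topography (0, 13 and 0 reads), against 28.9, 23.8 and 9.64 with smooth disks (35, 51 and 8 reads). Small-scale topography replicate 2 lay between the smooth libraries, so the groups overlapped. The log2 fold change was -2.85 (SE 1.39, 95% interval -5.70 to 0.0038), with an unadjusted p of 0.0503 and an adjusted p of 0.823 in limma's test. By unadjusted p it was number 13 of the 536 sequences tested. Its size rested on the libraries at 0: taking a listed 0 as the value of 5 reads gave -1.0. Without small-scale topography replicate 2, where both remaining libraries of that group are at 0, it was -4.31 with an unadjusted p of 0.0064 and an adjusted p of 0.229 in limma's test. Without small-scale topography replicate 1 it was -2.11, with an unadjusted p of 0.253 in limma's test. Only 1 of the 6 fits with 1 library left out had an unadjusted p under 0.05.

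The Mir223 hairpin also gave mir-223-p5, which lies on the side of the 5′ arm at positions 37 to 55, begins 11 bases after the annotated miR-223-5p and was not kept by the name rule. Its value was 7.72, 7.77 and 0 with small-scale topography (6, 5 and 0 reads), against 0, 2.33 and 7.23 with smooth disks (0, 5 and 6 reads). It was listed in 2 of 3 libraries on each disk. With 5 or 6 reads behind each listed value, its order of libraries cannot be set against that of miR-223-3p. miR-223-5p in its annotated form was not analysed here.

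miR-342-5p_R+4, from the intron of Evl, was the least abundant of the 4. Its value was 0, 7.77 and 0 with small-scale topography (0, 5 and 0 reads), against 13.2, 9.32 and 0 with smooth disks (16, 20 and 0 reads). It was listed in 1 library of small-scale topography and 2 smooth libraries, and the groups overlapped at 0. The log2 fold change was -1.35 (SE 1.67, 95% interval -4.78 to 2.07), with an adjusted p of 0.823 in limma's test. Without smooth replicate 3 it was -2.55, without smooth replicate 1 it was -0.64, and with a listed 0 taken as the value of 5 reads it was -0.45. The 3p arm of miR-342 was not analysed here.

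**Figure D2:**
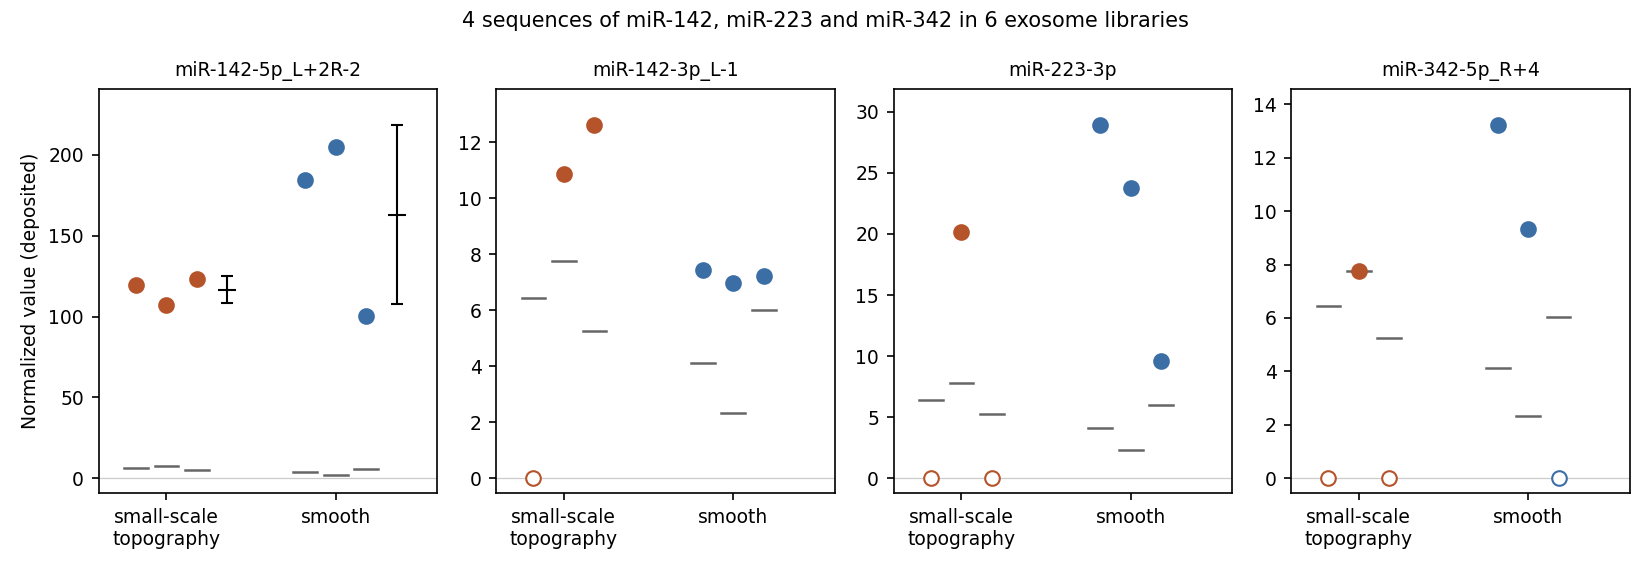
Normalized value (y axis, a separate linear scale in each panel) of the 4 sequences in the 3 libraries with small-scale topography (left, orange) and the 3 smooth libraries (right, blue); open dots are listed zeros, short grey bars are the value of 5 reads in that library, and black marks, drawn only for the sequence listed in every library, are mean ± SD. miR-142-5p_L+2R-2 lies between 100.02 and 205, while the other 3 sequences stay at or under 28.9, with miR-223-3p at 28.9 and 23.8 in smooth replicates 1 and 2, where 5 reads are worth 4.13 and 2.33.

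In the fit across the whole table, none of the 4 sequences passed an adjusted p of 0.05, where 0 of 536 sequences (0%) passed and the smallest adjusted p was 0.823. None had an unadjusted p under 0.05, against 12 of 536 sequences (2.24%) in the table, and none had groups that did not overlap, against 37 of 536 (6.9%). All 4 log2 fold changes were below 0, where 265 of 536 sequences (49.4%) were below 0. Their median was -0.97, beside 0.012 over all sequences tested, and 3 of the 4 held a listed 0 in at least 1 library with small-scale topography. With a listed 0 taken as 5 reads, an alternative chosen after seeing the data, miR-223-3p was at -1.0 and miR-342-5p_R+4 at -0.45. miR-142-5p_L+2R-2 stayed at -0.42 and miR-142-3p_L-1 was at 0.37, so not all 4 were below 0. Over the table, 151 tested sequences were at 0 in 2 or more small-scale topography libraries, against 120 in 2 or more smooth libraries. A normalized value gives the level of a sequence relative to the rest of its library, not an amount. It does not tell the number of vesicles that carry a microRNA from its copies per vesicle.

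**Figure D3:**
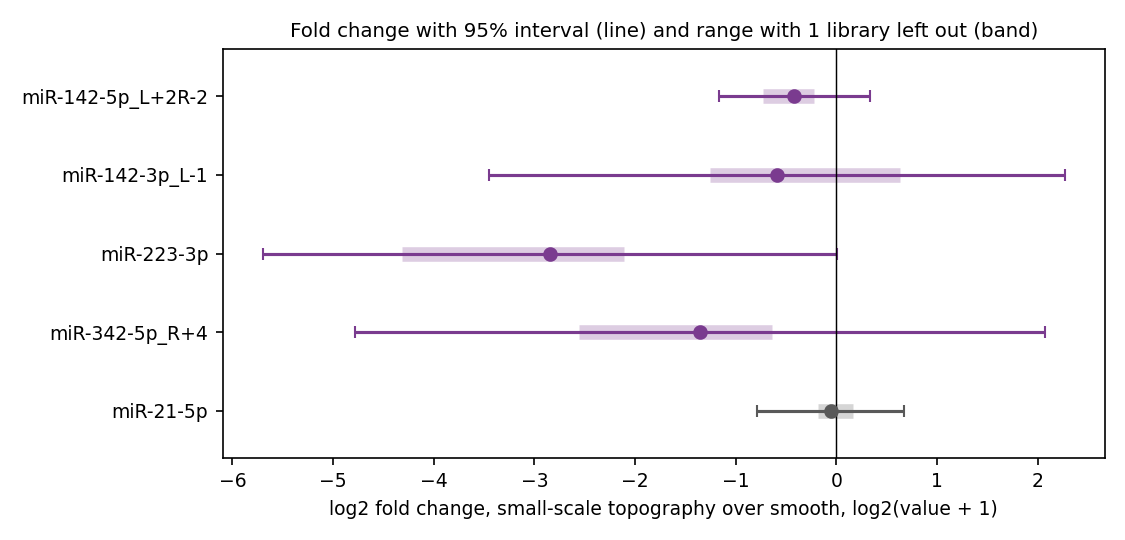
Log2 fold change, small-scale topography over smooth, on the log2(value + 1) scale for the 4 sequences (purple) and miR-21-5p (grey), with the 95% interval of limma's fit as a line and the range over fits without 1 library as a band. All 5 intervals include 0, that of miR-223-3p by 0.0038 at its upper end, and the band of miR-142-3p_L-1 reaches 0.63 on the other side of 0.

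With the sequences of a microRNA summed in each library, no group difference reached the smallest p that 3 libraries against 3 allow, 0.1, in a two-sided exact permutation test. miR-142 averaged 124 ± 9.70 with small-scale topography and 170.1 ± 55.4 with smooth disks (SD, n = 3 each), a log2 difference of -0.39 (exact permutation p = 0.4). miR-223 averaged 6.73 ± 11.7 with small-scale topography and 20.8 ± 9.97 with smooth disks (SD, n = 3 each), a log2 difference of -2.85 (exact permutation p = 0.2). miR-342 averaged 2.59 ± 4.48 with small-scale topography and 7.51 ± 6.79 with smooth disks (SD, n = 3 each), a log2 difference of -1.35 (exact permutation p = 0.4). The means of miR-223 and miR-342 include the libraries listed at 0.

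All 4 sequences were minor beside miR-21-5p, the leading microRNA of these exosomes, which is widely expressed and induced in activated macrophages. miR-21-5p had values of 80533, 126031 and 128178 with small-scale topography, against 118082, 130524 and 94483 with smooth disks, and made up 43.1% ± 4.24 of all values with small-scale topography and 43.3% ± 3.03 with smooth disks (SD, n = 3 each). Its log2 fold change was -0.05 (SE 0.36, 95% interval -0.78 to 0.68). It exceeded miR-142-5p_L+2R-2 by 673-fold, 1176-fold and 1042-fold with small-scale topography, against 641-fold, 638-fold and 945-fold with smooth disks. The 4 sequences together made up 0.0568%, 0.0521% and 0.0487% of all values with small-scale topography, against 0.0858%, 0.0869% and 0.0499% with smooth disks. Small-scale topography replicate 1 was highest of its group and smooth replicate 3 lowest of its own, and that library lay within the range of the libraries with small-scale topography.

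The levels were also set against miR-21-5p of the same library, with the differences taken on the log2 scale after 1 was added to each value. Per 1000000 units of miR-21-5p, miR-142 averaged 1159.8 ± 288 with small-scale topography and 1459.5 ± 281 with smooth disks (SD, n = 3 each), a log2 difference of -0.34 (exact permutation p = 0.2). miR-223 averaged 53.4 ± 92.5 such units with small-scale topography and 176 ± 71.5 with smooth disks (SD, n = 3 each), a log2 difference of -2.79 (exact permutation p = 0.2). miR-342 averaged 20.5 ± 35.6 such units with small-scale topography and 61.1 ± 56.7 with smooth disks (SD, n = 3 each), a log2 difference of -1.30 (exact permutation p = 0.4). With a pseudocount of 10 the differences relative to miR-21-5p were -0.98 for miR-223 and -0.39 for miR-342. With 1 library left out, the difference of miR-142 was lowest at -0.53, with small-scale topography replicate 1 omitted, and highest at -0.20, with replicate 2 of that group omitted. That of miR-223 was lowest at -4.16, with small-scale topography replicate 2 omitted, and highest at -1.94, with replicate 3 of that group omitted. That of miR-342 was lowest at -2.37, with smooth replicate 3 omitted, and highest at -0.62, with smooth replicate 1 omitted. These 3 ratios and the 3 summed levels above are 6 comparisons of the same libraries, none of which could reach a p of 0.05 with 3 libraries against 3.

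miR-142-5p_L+2R-2 was the only one of the 4 listed in all 6 libraries, so that its pattern could be set beside those of the 251 other sequences tested and listed throughout. The highest Pearson correlation of log2(value + 1), over 6 libraries that share their depth and scaling, was with miR-21-3p_R-2, a form of the 3′ arm of miR-21 (r = 0.97). Its value was 72.0, 55.9 and 74.6 with small-scale topography, against 95.8, 117 and 54.2 with smooth disks, again with smooth replicate 3 lowest of its group. miR-15b-5p_R-1, of a family known to repress cell cycle genes, followed (r = 0.96), and miR-421-3p_R+3 was next (r = 0.94). The correlation with miR-21-5p was 0.45, and the median over the 251 sequences was -0.0023. These are descriptions of 6 libraries chosen as the highest of many.

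Other microRNAs of blood cells were counted from a list of 38 names, of which 31 had a tested sequence, 42 sequences in all. Of these, 15 had a log2 fold change above 0 and 27 below 0, with a median of -0.11. None passed the adjusted threshold in limma's test, 2 had an unadjusted p under 0.05, and 6 had groups that did not overlap. Over all 536 sequences tested, 49.4% were below 0, 2.24% had an unadjusted p under 0.05 and 6.9% had groups that did not overlap. The 2 sequences, named here after their values were seen, were miR-146b-5p, with a log2 fold change of -1.31 (SE 0.40), and miR-146a-5p, with -1.06 (SE 0.36), both feedback regulators of Toll-like receptor signalling. The most abundant on the list were miR-27a-3p_R-1, miR-24-3p and miR-16-5p. miR-27a-3p_R-1, processed from a cluster shared with miR-24, had values of 4414, 3313 and 4086 with small-scale topography, against 4587, 6069 and 4335 with smooth disks. Its log2 fold change was -0.34 (SE 0.25), that of miR-24-3p was -0.28 (SE 0.25) and that of miR-16-5p was -0.22 (SE 0.25), each with an adjusted p of 0.823 in limma's test.

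The label of the cells was set beside microRNAs that mark other cell types. Of the blood-lineage microRNAs, miR-142 was listed in all 6 libraries, miR-223 in 4 and miR-342 in 3. The liver microRNA miR-122 summed to between 3102 and 3491 with small-scale topography and between 2255 and 3726 with smooth disks, which was 9.22 to 31.9 times the 4 blood-lineage sequences of the same library. miR-126a, of endothelium and of some blood cells, summed to between 603 and 776 with small-scale topography and between 460.5 and 800.1 with smooth disks, 1.88 to 6.47 times the 4 sequences. The mesenchymal list, with 3 of its 6 names listed, summed to between 528 and 765 with small-scale topography and between 676 and 788 with smooth disks.

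The remaining lists were at or under the level of the blood-lineage sequences. All 3 microRNAs of the red blood cell list, miR-144, miR-451 and miR-486, were listed. The other 3 of its 6 names, miR-451a, miR-486a and miR-486b, are variant names of miR-451 and miR-486 and had no row. The list summed to between 90.0 and 119.8 with small-scale topography and between 70.1 and 109.8 with smooth disks. The epithelial list, with 5 of 7 names listed, summed to between 6.43 and 41.9 with small-scale topography and between 19.3 and 66.6 with smooth disks, and the list of striated muscle, with 3 of 8 names listed, stayed at or under 9.32. The ranges of the 2 disks overlapped for each of these lists. Their part in the levels of the blood-lineage sequences was not tested.

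**Figure D4:**
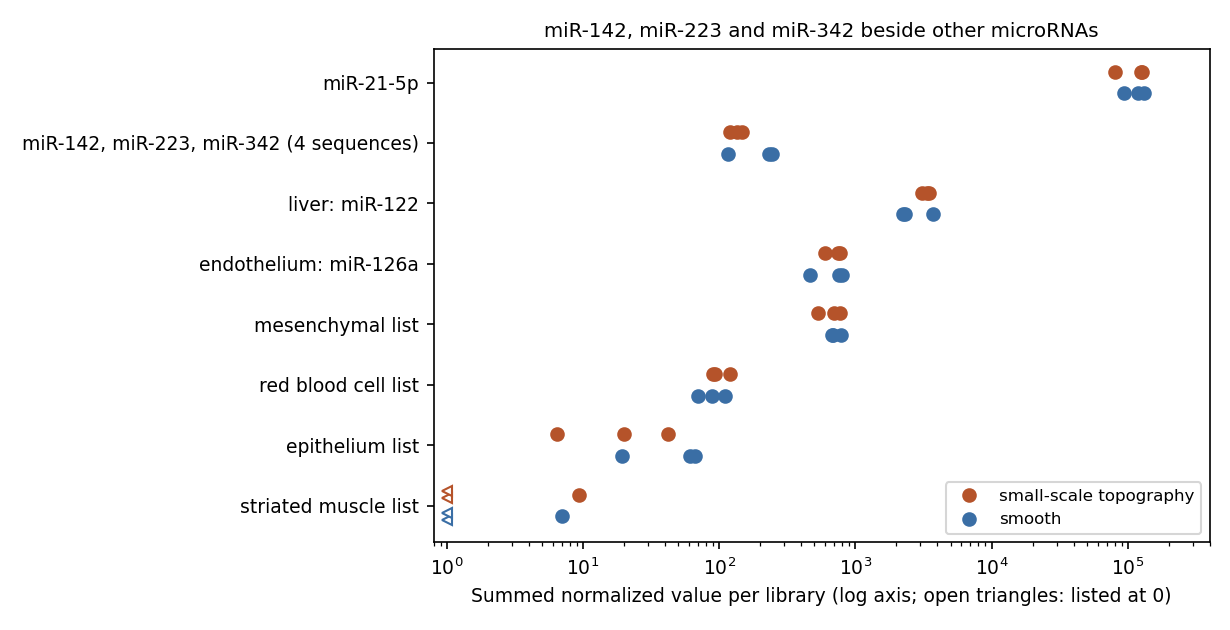
Summed normalized value per library (log axis) of miR-21-5p, of the 4 sequences of miR-142, miR-223 and miR-342, and of the marker lists, with small-scale topography in orange above smooth disks in blue; open triangles at the left edge are libraries listed at 0. The 4 sequences sum to between 117 and 245, under miR-122 at 2255 to 3726 and under miR-21-5p at 80533 to 130524 in every library.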

How the data were processed

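Small RNA from exosomes of RAW264.7 cells was sequenced by the authors from TruSeq libraries. After adapter trimming they kept reads of 18 to 26 nt, discarded those matching mRNA, repeats or other classes of RNA, and used ACGT101-miR to name and normalize the rest. Each deposited number is a normalized signal per sequence, not a count. Its scaling factor, the program version, miRBase release and build were not given in the sources used here. Read from the file were 2731 rows, with 1 further line empty. Rows sharing a sequence and values were counted once.

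Groups were compared in limma, two-sided, on log2(value + 1) with a mean-variance trend. The fit covered the 536 distinct sequences with a summed value of 20 or more, and p-values were adjusted by Benjamini-Hochberg. Summed values were compared with exact permutation tests over 20 assignments. Sequences were matched exactly to RefSeq hairpins and GENCODE M21 genes (GRCm38). Reads, recovered from the smallest steps of the values, were 51 or fewer per library for the 3 low sequences. No count test was run.

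All 4 member sequences, miR-21-5p, the 3 sequences most like a member and the 3 most abundant of the blood list were named. Members and lists were chosen with earlier results of these data known. Alternatives were 2 other scalings, pseudocounts of 0.5 and 10, other filters, no trend, summed isomiRs, a replicate block, a listed 0 taken as 5 reads, the leading sequence alone, miR-21-5p with its isomiRs, and each library left out in turn. R 4.3.3 ran limma 3.58.1, and Python 3.11.15 ran SciPy 1.17.1, NumPy 2.4.6, Matplotlib 3.10.9 and pandas 2.3.3.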

Additional observations from a re-analysis of the deposited data

How the results depend on the processing

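No alternative gave a call at an adjusted p of 0.05, for the 4 sequences or over the table, in limma's test. The log2 fold changes of miR-142-5p_L+2R-2, miR-223-3p and miR-342-5p_R+4 were below 0 under each alternative that kept them. The replicate block, no trend, no filter on the sum and summed isomiRs could not change these fold changes, so their sign there was fixed. With 1 library left out the fold changes were at -0.73 to -0.22, -4.31 to -2.11 and -2.55 to -0.64. The filter to sequences listed in all 6 libraries kept only miR-142-5p_L+2R-2. With a listed 0 taken as the value of 5 reads, an alternative chosen after seeing the data, miR-223-3p was at -1.0 and miR-342-5p_R+4 at -0.45. The log2 fold change of miR-142-3p_L-1 changed sign, to 0.63 without small-scale topography replicate 1 and to 0.37 with a listed 0 taken as the value of 5 reads. Its range with 1 library left out was -1.25 to 0.63. The difference of the arm ratio, 0.18, was -0.36 with a pseudocount of 10 and -1.07 to 0.80 with 1 library left out. The cause was not tested. The median of all log2 fold changes was 0.028 and 0.049 under the 2 other scalings, against 0.012 as deposited. Deviations of same-numbered libraries from their group means had r of -0.17, 0.11 and -0.0021 over 252 sequences, so the numbers were not taken as pairs, and the fit with the replicate block also gave 0 calls. Depth limits miR-142-3p_L-1, miR-223-3p and miR-342-5p_R+4, whose listed values rest on 5 to 51 reads.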
